A study of Mus musculus with 11 samples.

Results

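The core cardiac transcription factors measured here were the GATA factors Gata4 and Gata6, the homeobox factor Nkx2-5, the T-box factors Tbx5 and Tbx20, the basic helix-loop-helix factor Hand2 and the MADS-box factors Mef2a, Mef2c and Mef2d. They were taken as every probe on the array whose annotated gene symbol is one of these names. This gave 16 probes for 9 genes, of 25697 probes for 16593 named genes on the MouseRef-8 Expression Beadchip. The rule uses gene names and no signal values.

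The arrays hold RNA of HL-1 cells, a single line of atrial cardiomyocytes of the adult mouse that keeps dividing in culture. The line came from an atrial tumour of a transgenic mouse, in which the atrial natriuretic factor promoter drove the simian virus large T antigen, and all 3 groups share this origin. Control cells (n=4), cells given TGF-β2 at 10 ng/mL (n=4) and cells given PDGF-BB at 100 ng/mL (n=3) were kept in serum-free medium for 23 h. Chip 1 carried arrays 1 and 2 of the control and of the TGF-β2 cells with array 1 of the PDGF-BB cells, and chip 2 carried the other 6. Total RNA was measured, so less message per cell and fewer expressing cells cannot be told apart.

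These factors bind short DNA motifs in the enhancers of heart genes and often act together on the same enhancer. GATA4, NKX2-5 and TBX5 bind one another as proteins, MEF2 factors bind A/T-rich sites of muscle genes, and HAND2 is required for growth of the right ventricle in the mouse embryo. Many of them switch on each other's genes, and they remain active in the adult heart, where they keep up contractile and hormone genes such as Nppa.

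HL-1 cells expressed nearly the whole set. By the detection rule that the study applied to its cells, a detection p-value under 0.05 and a normalized signal above 30, 8 of the 9 genes had a probe that passed on all 11 arrays, and 13 of the 16 probes did so. Of all probes on the array, 38.7% passed on all 11. Mef2d was the gene that did not, with its 1 probe passing on 6 of 11 arrays. The detection p-value is the chance that a negative control probe is as bright, and the signals are the normalized values of the authors on a linear scale. With a signal above 100 in place of 30, 6 genes passed on all 11 arrays, and with a detection p-value under 0.01 there were 7.

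No factor was called different between groups. Of the 15 tested probes, 0 passed an adjusted p of 0.05 in limma for TGF-β2 against control, for PDGF-BB against control, or for TGF-β2 against PDGF-BB. The same was true of all 12894 probes tested, of which 0% were called in each comparison. At an unadjusted p under 0.05 there were 0, 2 and 2 of the 15 probes in the same order, against 2.02%, 3.2% and 5.13% of all tested probes. Each of these 2 probes belongs to Mef2c, whose signal was lower on the PDGF-BB arrays. Taken by direction, 1.89% of all probes were lower with PDGF-BB than in control cells at this p, and 3.69% lay above their PDGF-BB level in TGF-β2-treated cells. The log2 fold changes of the 15 probes had a median standard error of 0.21, 0.23 and 0.23, beside 0.18, 0.2 and 0.2 for all probes.

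**Figure D1:**
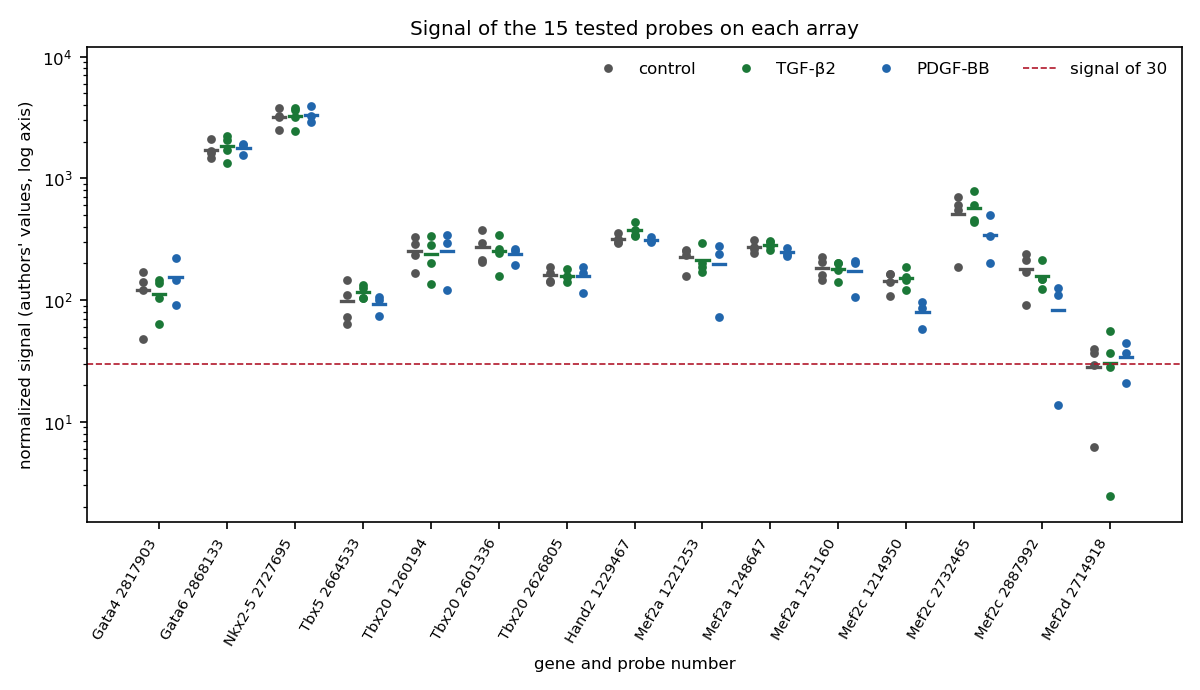
Normalized signal (log axis) of the 15 tested probes on each of the 11 arrays, with a short line at each group mean, for control (grey), TGF-β2 (green) and PDGF-BB (blue). The dashed line marks a signal of 30. The groups lie within each other's range at most probes, and the Mef2c probe ILMN_1214950 has its 3 PDGF-BB arrays below the 8 others. Heights are not comparable between probes.

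The GATA factors bind the sequence that names them and act early in heart formation. Gata4, an activator of natriuretic peptide genes and a mediator of cardiomyocyte growth, had a low and variable signal. Its probe ILMN_2817903 read 120.9, 169.7, 140.3 and 48.29 in control cells. TGF-β2-treated cells gave 137.6, 146.4, 103.3 and 63.25, and PDGF-BB-treated cells 223.6, 90.89 and 145.9. The 3 groups overlapped, and the highest array was 4.63 times the lowest. The order of the means was PDGF-BB (153.5 ± 66.7, SD, n=3), control (119.8 ± 51.7, n=4) and TGF-β2 (112.6 ± 37.8, n=4), and neither pair of neighbours differed beyond its spread. Between PDGF-BB-treated and control cells the log2 fold change was 0.34 (95% interval -0.44 to 1.12), an interval that covers changes in both directions. The standard error over the beads of this probe, as a share of the signal, had a median of 16.9% over the 11 arrays.

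Gata6, a relative with overlapping roles in cardiac progenitors, was bright and steady. Its probe ILMN_2868133 was detected on 11 of 11 arrays, with signals from 1333 to 2230. Group means were 1833 ± 395 in TGF-β2-treated cells, 1786 ± 198 in PDGF-BB-treated cells and 1716 ± 282 in control cells. The order is within the spread of every group, and the log2 fold changes against control were 0.08 (interval -0.31 to 0.47) for TGF-β2 and 0.06 (-0.36 to 0.48) for PDGF-BB.

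Nkx2-5, the homeobox factor that marks cardiac precursors and that persists in adult cardiomyocytes, was similarly even across the groups. Its probe ILMN_2727695 read between 2442 and 3905, with means of 3344 ± 513 in PDGF-BB-treated, 3267 ± 612 in TGF-β2-treated and 3175 ± 523 in control cells. The log2 fold change was 0.03 for TGF-β2 against control, with an interval from -0.35 to 0.41. For PDGF-BB against control it was 0.07, with an interval from -0.34 to 0.48. Changes larger than these bounds are outside the intervals, and smaller ones are inside them. These bounds are those of the fit with no block for chip or replicate number. With chip as a block, the standard error for TGF-β2 against control was 0.15, beside 0.18 here.

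The T-box factors gave 4 tested probes and 1 that was never detected. Tbx5, which patterns the atria and the left ventricle and activates Nppa and connexin genes with NKX2-5, has 2 probes on the array. Probe ILMN_2604948 was detected on 0 of 11 arrays (lowest detection p-value 0.0789, signals from -5.65 to 27.34), whereas ILMN_2664533 was detected on 11. Both are annotated to the same transcript. Signals of ILMN_2664533 were 146.2, 63.7, 110.2 and 73.11 in control cells, 133.8, 125.4, 104.9 and 104.8 in TGF-β2-treated cells, and 74.46, 105 and 100.6 in PDGF-BB-treated cells. The TGF-β2 arrays lay inside the control range, as did the PDGF-BB arrays. The TGF-β2 mean of 117.2 ± 14.7 was the highest, followed by 98.31 ± 37.7 in control and 93.34 ± 16.5 in PDGF-BB-treated cells, with no neighbours apart beyond their spread. The log2 fold change of TGF-β2 against control was 0.26 (interval -0.19 to 0.7, unadjusted p = 0.235 in limma).

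Tbx20, which restrains Tbx2 in the developing chambers and maintains adult cardiomyocytes, was detected by all 3 of its probes on all 11 arrays. Signals ran from 121.3 to 342.6 for ILMN_1260194, from 156.6 to 374.6 for ILMN_2601336 and from 114.8 to 188.6 for ILMN_2626805. The last is annotated to another RefSeq transcript of the gene than the other 2. The 3 log2 fold changes of TGF-β2 against control were -0.13, -0.11 and 0, and those of PDGF-BB against control -0.09, -0.16 and -0.04. All 6 intervals include 0, the widest running from -0.86 to 0.68. At ILMN_1260194 the arrays PDGF-BB 1 (121.3), TGF-β2 2 (134.4) and control 2 (166.7) were the lowest of their groups. These are the arrays with the lowest mean non-normalized signal in each group, 451, 528 and 589, and the part of overall brightness in these values was not tested.

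Hand2, a basic helix-loop-helix factor of the right ventricle and of sympathetic neurons, was detected on all 11 arrays, with signals from 295 to 435.3. In control cells its probe ILMN_1229467 read 298, 317.6, 356.7 and 295. TGF-β2-treated cells read 375.5, 343.9, 338.6 and 435.3, and PDGF-BB-treated cells 303.7, 300.6 and 331.9. The TGF-β2 arrays were all above the PDGF-BB arrays, and they overlapped the control arrays only through control 3. The means were 373.3 ± 44.4 for TGF-β2, 316.8 ± 28.4 for control and 312 ± 17.2 for PDGF-BB. The log2 fold change of TGF-β2 was 0.23 against control (interval -0.06 to 0.51, unadjusted p = 0.106, adjusted p = 1 in limma). Against PDGF-BB it was 0.25 (interval -0.06 to 0.55, unadjusted p = 0.107, adjusted p = 1 in limma). Control and PDGF-BB did not differ beyond their spread, with a log2 fold change of -0.02 and an interval from -0.32 to 0.29. Groups that do not overlap were seen at 2 of the 15 probes between the treated groups, of Hand2 and Mef2c, against 5.12% of all tested probes (3.41% with TGF-β2 above PDGF-BB). Between TGF-β2 and control this was so at 0 of the 15 probes, against 1.38%.

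Mef2a, Mef2c and Mef2d encode factors that bind as dimers to A/T-rich sites of contractile and metabolic genes and that class II histone deacetylases hold in check. Mef2a, the main MEF2 of the adult heart in the mouse, was detected by its 3 probes on all 11 arrays. At ILMN_1248647 the signal was the steadiest of the set, from 232 to 312.7, a ratio of 1.35. Means there were 284.5 ± 21.3 in TGF-β2-treated, 272 ± 29.7 in control and 247 ± 19.3 in PDGF-BB-treated cells, and the log2 fold changes against control were 0.06 (interval -0.22 to 0.34) and -0.13 (-0.43 to 0.18).

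The other probes of Mef2a had a single low array. ILMN_1221253 read 254.2, 157.9, 259.7 and 236.3 in control cells and 170.7, 200.7, 293.2 and 188.4 in TGF-β2-treated cells. In PDGF-BB-treated cells it read 71.92, 239.3 and 279.4, so that PDGF-BB 1 lay far below the other arrays while PDGF-BB 2 and 3 lay among the controls. ILMN_1251160 was also lowest on PDGF-BB 1, at 105.5, with the other 10 arrays between 141.8 and 224.7. The log2 fold changes of PDGF-BB against control were -0.34 (interval -1.09 to 0.4) and -0.13 (-0.62 to 0.37). Over the 11 arrays these 2 probes had a Pearson's r of 0.9, given as a description of arrays that also share overall brightness.

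Mef2d, the MEF2 factor that mediates stress-dependent remodelling in the mouse heart, was near the limit of detection. Its probe ILMN_2714918 had signals from 2.471 to 55.22, was detected on 2 arrays of each group, and read 27.91 ± 15.1 in control, 30.67 ± 21.9 in TGF-β2-treated and 33.86 ± 12 in PDGF-BB-treated cells. The 3 means lie well inside one another's spread, and no order can be read at this signal.

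Mef2c had the lowest unadjusted p of these factors in both comparisons with PDGF-BB, and it was not called in any comparison. It is needed for looping and right ventricle formation in the mouse embryo, and GATA4, NKX2-5 and ISL1 are known to bind its enhancers. The RefSeq promoters of the mouse gene are shown because the data bear on its transcript level and because the gene has several starts. RefSeq sequence (assembly GRCm38.p6) from 250 bases before to 50 bases after a start was found for 6 of the 9 genes, 8 promoters in all. Of these, the 3 of Mef2c and the 1 of Mef2a are printed 5′ to 3′ along the gene. Capitals mark an NKX2-5 core (AAGTG or its complement CACTT) and a T-box core (AGGTGT) in Mef2c, and a MEF2 site in Mef2a.
Mef2c promoter 1 (chr13:83503784-83504083, plus strand): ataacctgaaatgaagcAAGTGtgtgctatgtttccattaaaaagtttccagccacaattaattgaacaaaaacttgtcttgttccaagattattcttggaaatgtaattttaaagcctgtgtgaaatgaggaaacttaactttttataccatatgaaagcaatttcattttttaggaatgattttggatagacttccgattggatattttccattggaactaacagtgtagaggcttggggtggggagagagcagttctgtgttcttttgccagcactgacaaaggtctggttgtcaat
Mef2c promoter 2 (chr13:83523406-83523705, plus strand): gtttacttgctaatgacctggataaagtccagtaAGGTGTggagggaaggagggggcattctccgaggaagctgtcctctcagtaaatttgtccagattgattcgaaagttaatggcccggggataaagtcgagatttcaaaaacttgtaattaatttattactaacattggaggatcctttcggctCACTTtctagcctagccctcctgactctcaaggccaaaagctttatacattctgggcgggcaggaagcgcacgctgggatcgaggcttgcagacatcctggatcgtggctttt
Mef2c promoter 3 (chr13:83573357-83573656, plus strand): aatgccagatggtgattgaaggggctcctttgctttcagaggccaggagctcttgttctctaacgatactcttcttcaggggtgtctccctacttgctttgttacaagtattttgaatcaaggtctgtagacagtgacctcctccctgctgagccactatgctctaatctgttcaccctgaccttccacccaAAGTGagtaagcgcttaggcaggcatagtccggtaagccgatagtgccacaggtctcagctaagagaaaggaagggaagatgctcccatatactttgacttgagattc
Mef2a promoter (chr7:67372809-67373108, minus strand): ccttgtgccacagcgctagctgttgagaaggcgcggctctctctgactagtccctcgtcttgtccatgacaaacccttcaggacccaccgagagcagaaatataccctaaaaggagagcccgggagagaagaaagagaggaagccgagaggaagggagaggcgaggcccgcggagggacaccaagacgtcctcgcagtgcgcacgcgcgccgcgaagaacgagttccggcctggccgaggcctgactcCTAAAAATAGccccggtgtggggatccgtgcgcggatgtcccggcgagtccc

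Each Mef2c promoter held 1 NKX2-5 core, at 233, 63 and 58 bases before the start, and promoter 2 held 1 T-box core at 216 bases before it. The first of these NKX2-5 cores overlaps an E-box (CANNTG, the site of basic helix-loop-helix factors), which is not capitalized. None of the 3 held a GATA match (AGATAA or AGATAG or either with T as its first base). With both strands searched, the NKX2-5 core is in 46.4% of the 32851 RefSeq promoters of this length, the T-box core in 13.7%, a GATA match in 29.8% and an E-box in 72.3%. The MEF2 site of the Mef2a promoter begins 2 bases before the start, and 3.19% of promoters hold such a site. These matches describe letters in a window and say nothing of binding in HL-1 cells.

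The 3 probes of Mef2c are annotated to 1 transcript and gave lower signals on the PDGF-BB arrays. ILMN_1214950 read 164.7, 107.3, 141.4 and 163.2 in control cells and 187.5, 154.4, 120.1 and 147.4 in TGF-β2-treated cells. In PDGF-BB-treated cells it read 57.95, 97.23 and 85.66. The PDGF-BB arrays were thus below all 4 control and all 4 TGF-β2 arrays, whereas control and TGF-β2 overlapped. The means were 152.4 ± 27.7 for TGF-β2, 144.2 ± 26.8 for control and 80.28 ± 20.2 for PDGF-BB. The log2 fold change of PDGF-BB against control was -0.73 (SE 0.2, interval -1.16 to -0.3), a signal ratio of 0.604, with an unadjusted p of 0.00294 and an adjusted p of 1 in limma. TGF-β2 against PDGF-BB gave 0.8 (SE 0.2, interval 0.37 to 1.23), with an unadjusted p of 0.00143 and an adjusted p of 0.755 in limma. It was the only one of the 15 probes whose arrays did not overlap between PDGF-BB and control, as was so for 3.65% of all tested probes (1.7% with PDGF-BB below).

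At ILMN_2887992 the spread was wider and 1 array decided the size of the difference. Its signals were 214.4, 91.82, 240.9 and 170.7 in control cells and 149.3, 149.1, 213.2 and 122.4 in TGF-β2-treated cells. In PDGF-BB-treated cells they were 13.7, 109.4 and 125.9, and the first of these was not above background (detection p-value 0.203). PDGF-BB 2 and 3 lay above the lowest control array, control 2, so the groups overlapped. The log2 fold change of PDGF-BB against control was -1.08 (interval -1.95 to -0.2, unadjusted p = 0.0196, adjusted p = 1 in limma), and that of TGF-β2 against PDGF-BB was 0.96 (interval 0.09 to 1.84, unadjusted p = 0.0332, adjusted p = 0.929 in limma). Without PDGF-BB 1 these values were -0.49 (unadjusted p = 0.14) and 0.37 (unadjusted p = 0.248), both smaller than those of ILMN_1214950 without that array, -0.56 and 0.63.

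The third probe, ILMN_2732465, did not reach an unadjusted p of 0.05 in the fit with no block. It read 600.5, 188.5, 702.7 and 545.4 in control cells, where control 2 stood apart from the others. The TGF-β2 arrays gave 434.8, 452.2, 790 and 607.5, and the PDGF-BB arrays 200.7, 499 and 334.5. The log2 fold change of PDGF-BB against control was -0.48 (interval -1.35 to 0.38, unadjusted p = 0.25 in limma). TGF-β2 against PDGF-BB gave 0.75 (interval -0.12 to 1.62, unadjusted p = 0.0851 in limma). Positions A to C and E to G of each chip were also taken as separate position sets, a split that the labels do not name. With the position set as a block the 2 log2 fold changes were -0.73 (unadjusted p = 0.0194, adjusted p = 0.548) and 1 (unadjusted p = 0.00357, adjusted p = 0.354). With chip as a block they were -0.62 (unadjusted p = 0.0647) and 0.88 (unadjusted p = 0.0131, adjusted p = 0.505). Of all tested probes, 8.74% and 8.41% had an unadjusted p under 0.05 with the position set block, and 6.85% and 7.25% with the chip block. With no block these shares were 3.2% and 5.13%. Over 26 alternative settings the probe reached that p in 2 against control and in 6 between the treated groups. Between TGF-β2-treated and control cells the 3 probes gave 0.08, 0.27 and -0.11 (in the order ILMN_1214950, ILMN_2732465, ILMN_2887992), with intervals that include 0 and reach from -0.92 to 1.07.

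**Figure D2:**
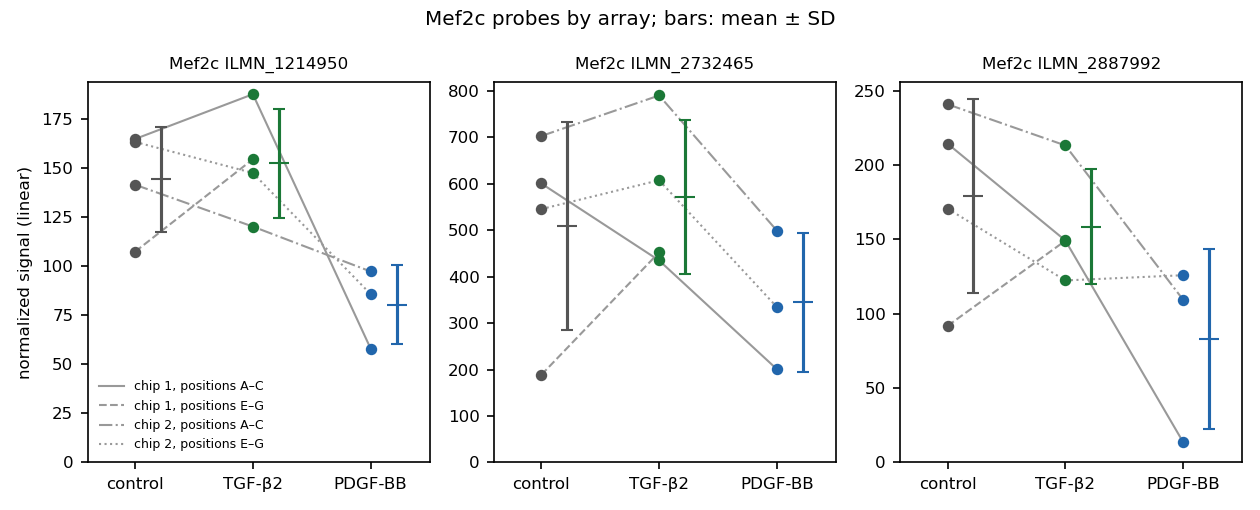
Normalized signal (linear axis from 0) of the 3 Mef2c probes on each array. Grey lines join arrays at positions A to C, or at positions E to G, of the same chip, and bars give the mean ± SD of each group. The PDGF-BB arrays at ILMN_1214950 read 57.95 to 97.23 against 107.3 to 164.7 in control cells, whereas at the other probes 1 control array (control 2) is also low.

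The arrays were also compared within chips. Each position set (letters A to C or E to G of a chip) held a control and a TGF-β2 array, and 3 of the sets held a PDGF-BB array as well. The labels give the letters and do not name such sets. In 3 of these 3 sets the PDGF-BB array was below the control array at all 3 Mef2c probes, as was so at 13.4% of all tested probes. Against the TGF-β2 array it was lower in 3, 3 and 2 of the 3 sets (11.6% of all probes were lower in every set). The same was true in 3 of 3 sets at Tbx5 ILMN_2664533, Hand2 and Mef2a ILMN_1248647, so it was not particular to Mef2c. On the second chip alone the log2 fold changes of PDGF-BB against control were -0.64, -0.58 and -0.72 for ILMN_1214950, ILMN_2732465 and ILMN_2887992. With chip as a block they were -0.74, -0.62 and -1.19. On the first chip the PDGF-BB arm is the single array PDGF-BB 1, and the differences from control there were -0.98, -0.72 and -2.02, the last against a signal not above background. None of these values passed an adjusted p of 0.05 in limma.

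The size of the Mef2c difference depended on which arrays were kept. PDGF-BB 1, the dimmest array of the series, was the lowest of the 11 at 5 of the 15 probes tested and the highest at 2. Without it the log2 fold changes of PDGF-BB against control were -0.56, -0.16 and -0.49, with unadjusted p of 0.0199, 0.718 and 0.14 in limma. For TGF-β2 against PDGF-BB they were 0.63, 0.42 and 0.37 without it, with unadjusted p of 0.01, 0.339 and 0.248. Without control 2, the dimmest control array, the values of PDGF-BB against control were -0.85, -0.89 and -1.34. Their unadjusted p in limma was 0.000962, 0.0114 and 0.00488, with a lowest adjusted p of 0.511. In the same comparison ILMN_2732465 gave -0.29 without control 3 and -0.79 without PDGF-BB 2, and ILMN_2887992 gave -1.42 without PDGF-BB 3. The dimmest array of each group was also left out, a choice made after the data were seen. The log2 fold changes were then -0.68, -0.56 and -0.75 against control, and 0.62, 0.52 and 0.39 for TGF-β2 against PDGF-BB. The part of array brightness in the Mef2c values was not tested otherwise.

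**Figure D3:**
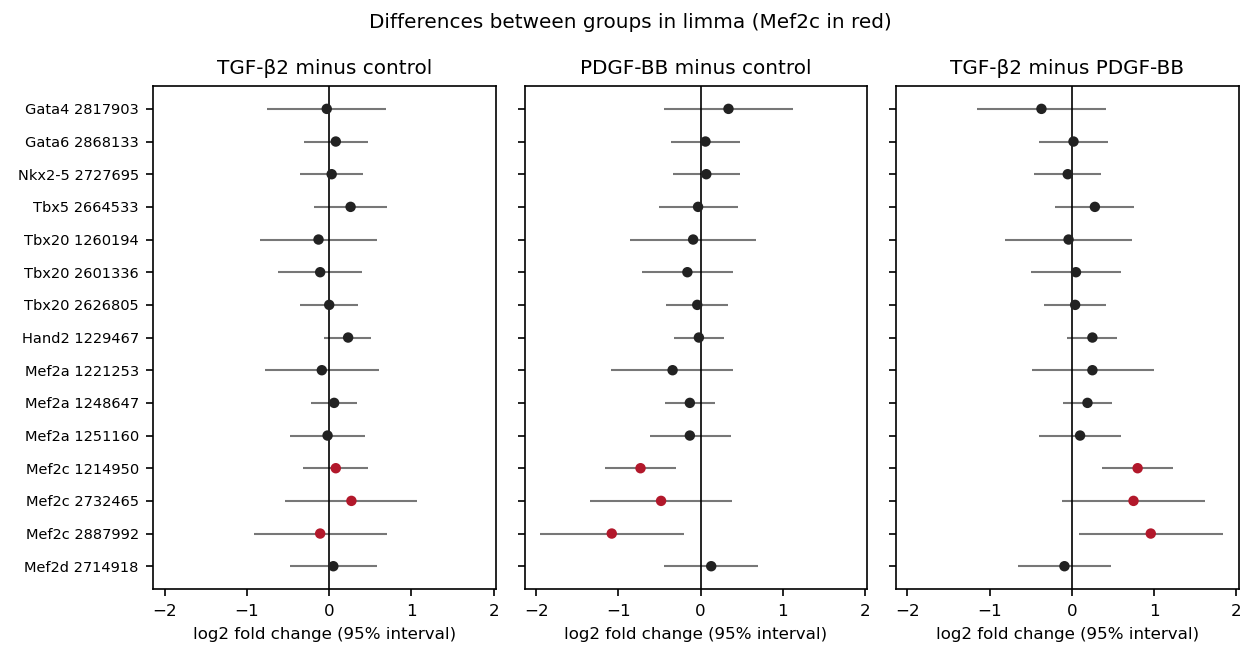
Log2 fold changes (points) with 95% intervals (lines) of the 15 tested probes in limma for TGF-β2 minus control, PDGF-BB minus control and TGF-β2 minus PDGF-BB, with Mef2c in red. Intervals of ILMN_1214950 and ILMN_2887992 leave out 0 in both comparisons with PDGF-BB, and the intervals of the other genes include it.

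Side by side, the 15 probes gave log2 fold changes from -0.13 to 0.27 for TGF-β2 against control, 8 above and 7 below 0, with a median of 0.026. For PDGF-BB against control they ran from -1.08 to 0.34, 4 above and 11 below 0, with a median of -0.088. For TGF-β2 against PDGF-BB they ran from -0.37 to 0.96, 11 above and 4 below 0, with a median of 0.103. The medians over all tested probes were -0.003, 0.011 and -0.023, and the shares of all probes above and below 0 were 49.2% and 50.8%, 52.2% and 47.8%, and 44.9% and 55.1%. The comparisons share arrays, and 9 of the 15 probes come from genes with 3 tested probes each, so these counts are not independent.

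**Figure D4:**
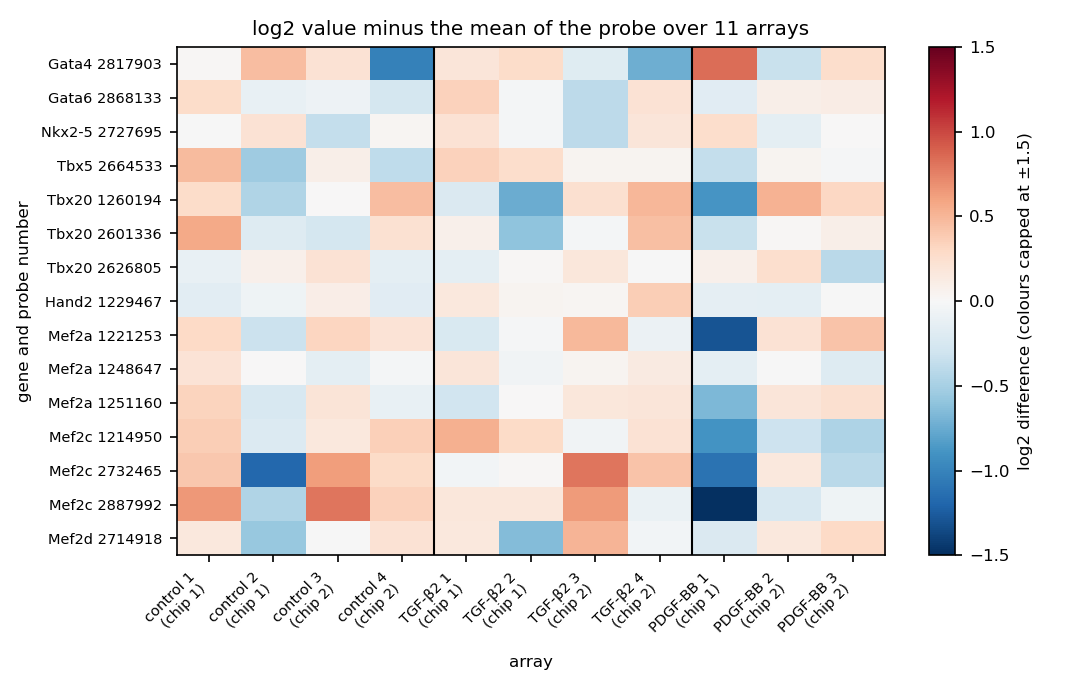
Background-corrected, quantile-normalized log2 value of each tested probe minus its mean over the 11 arrays, one row per probe and one column per array (colours capped at ±1.5). The PDGF-BB 1 column is darkest blue at Mef2c, at 2 of the 3 Mef2a probes and at 1 Tbx20 probe, and red at Gata4.

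Across the arrays the correlations between the factors ran in both directions. Over 96 pairs of probes of different genes the median Pearson's r was 0.2, with a range from -0.8 to 0.89. Over the 9 pairs of probes of the same gene the median was 0.62, from -0.38 to 0.9. These correlations are over the same 11 arrays, which share groups, chips and brightness, and are given as a description. The median r of other probe pairs was not computed, so 0.2 is not called low or high. The highest between different genes was that of Mef2a ILMN_1221253 with Mef2c ILMN_2887992, both lowest on PDGF-BB 1.

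For each factor the 2 genes of most similar pattern over the 11 arrays were found by Pearson's r. For Mef2c (ILMN_2732465) they were Gpd2, the mitochondrial glycerol-3-phosphate dehydrogenase, and Afmid, with r of 0.99 and 0.98. Gata4 was most like Zfp280b (0.96) and Tefm (0.95), and Gata6 most like Copg1 (0.92) and Cd59a (0.89). For Nkx2-5 they were Fam89b (0.98) and Toe1 (0.97), and for Hand2 Il2ra (0.86) and Scnn1a (0.83). Tbx5 was most like Rbm45 (0.96) and Wnk1 (0.94), and Tbx20 (ILMN_2601336) most like Dmac1 (0.93) and Stam (0.93). Mef2a (ILMN_1248647) was most like Irf9 (0.89) and Ercc5 (0.87), and Mef2d most like Cul4b (0.93) and Acsl3 (0.92). For each factor these are the 2 highest among those of the 12894 tested probes that have a single gene symbol of another gene. They rest on only 11 arrays, so no p is given and no relation is read from them.

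The relatives of these factors were mostly not detected. Of 21 further GATA, NKX2, T-box, HAND and MEF2 genes, 19 are on the array. Of these, 3 were detected on all 11 arrays, namely Gata2, Gata5 and Tbx18, and 12 on none. Hand1, the partner gene of Hand2 in the left ventricle, and Tbx2 were detected on 0 arrays. In limma 0 of the 6 tested were called. Tbx18, a factor of the sinus horns, read 410.4 ± 79.6 in TGF-β2-treated, 328.1 ± 70.1 in control and 273.4 ± 124 in PDGF-BB-treated cells, with a log2 fold change of 0.65 between the treated groups (unadjusted p = 0.0412, adjusted p = 0.966 in limma). Its groups overlapped, and its log2 fold changes against control were 0.31 for TGF-β2 and -0.34 for PDGF-BB (unadjusted p = 0.26 and 0.261 in limma). Mef2b, the remaining MEF2 gene, was detected on 7 arrays and gave the opposite sign between the treated groups, -0.66 (unadjusted p = 0.0559, adjusted p = 1 in limma), and -0.32 for TGF-β2 against control (unadjusted p = 0.298). Tbx3, a repressor that patterns the conduction system, was detected on 9 arrays and gave -0.5 for PDGF-BB against control (unadjusted p = 0.104, adjusted p = 1 in limma).

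Cofactors were present more often, with 14 of the 19 on the array detected on all 11 arrays and 0 of 14 called in any comparison. Myocd, the coactivator of serum response factor, read 1635 ± 246 in TGF-β2-treated, 1433 ± 501 in control and 965.7 ± 286 in PDGF-BB-treated cells. The treated groups did not overlap, as was so at 5.12% of all tested probes (3.41% with TGF-β2 above). The log2 fold change was 0.79 (unadjusted p = 0.0138, adjusted p = 0.783 in limma). Nfatc3, a gene of calcineurin signalling, gave 0.68 in the same comparison (unadjusted p = 0.0259, adjusted p = 0.9), also without overlap. For PDGF-BB against control it gave -0.55 (unadjusted p = 0.0635). Smarca4, the ATPase of the BAF chromatin complex that works with TBX5, read 303.7 ± 20 in TGF-β2-treated and 310.4 ± 8.49 in PDGF-BB-treated cells against 244.6 ± 35.7 in control cells. Its log2 fold changes against control were 0.31 and 0.34 (unadjusted p = 0.0388 and 0.0355, adjusted p = 1 for both in limma), from comparisons that share the control arrays. Its PDGF-BB and control arrays did not overlap, as was so at 3.65% of all tested probes. Wwtr1, the TAZ coactivator that can join TBX5, gave 0.34 for TGF-β2 against control (unadjusted p = 0.105, adjusted p = 1 in limma).

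Repressors and inhibitors were detected on all 11 arrays for 7 of the 16 genes on the array, and 0 of the 8 tested were called. Hey1, a Notch target that opposes GATA4 in the atrium, was bright in all groups, at 4255 ± 298 in control, 4771 ± 502 in TGF-β2-treated and 4703 ± 797 in PDGF-BB-treated cells. Hdac5, which represses MEF2 factors, read 1605 ± 163, 1432 ± 176 and 1556 ± 89.6 in the same order. Between the treated groups Tle1 gave a log2 fold change of 0.58 and Id2, an inhibitor of basic helix-loop-helix factors, 0.62 (unadjusted p = 0.0414 and 0.0444, adjusted p = 0.966 for both in limma). Against control, Tle1 gave -0.5 and Hdac4, another MEF2 repressor, 0.3 for PDGF-BB (unadjusted p = 0.0719 and 0.238 in limma). For TGF-β2 against control Id2 gave 0.39 and Hdac5 -0.17 (unadjusted p = 0.162 and 0.245 in limma).

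Among 18 other regulators of heart development on the array, most of them transcription factors, 10 were detected on all 11 arrays. Of the 11 tested, 0 were called. Ankrd1 was counted here and among the target genes below. Isl1, the second heart field factor, was detected on 0 arrays. Shox2, a factor of the sinoatrial node, read 456.3 ± 96 in TGF-β2-treated, 345.1 ± 135 in control and 217.6 ± 99.5 in PDGF-BB-treated cells. The treated groups did not overlap (5.12% of all tested probes, 3.41% with TGF-β2 above), with a log2 fold change of 1.12 (unadjusted p = 0.00748, adjusted p = 0.755 in limma). Irx5 gave 0.47 (unadjusted p = 0.0224, adjusted p = 0.87), also without overlap. Against control, Shox2 gave 0.46 for TGF-β2 and -0.66 for PDGF-BB (unadjusted p = 0.185 and 0.0844 in limma), and Irx5 gave -0.31 for PDGF-BB (unadjusted p = 0.106). Foxp1 read 124.4 ± 18.5 in TGF-β2-treated and 89.9 ± 13.6 in control cells, a log2 fold change of 0.4 (unadjusted p = 0.0424, adjusted p = 1 in limma). These 2 groups did not overlap, as was so at 1.38% of all tested probes.

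The genes that these factors are known to activate in cardiomyocytes were nearly all present. Of 33 such genes on the array, 30 were detected on all 11 arrays, and of the 32 tested 0 were called in any comparison. For TGF-β2 against control 11 log2 fold changes were above 0 and 21 below, with a median of -0.09. For PDGF-BB against control, which shares the control arrays, there were also 11 above and 21 below, with a median of -0.06. For TGF-β2 against PDGF-BB there were 14 above and 18 below, with a median of -0.01. The medians over all probes were 0, 0.01 and -0.02. Nppa, the atrial natriuretic peptide gene activated by GATA4, NKX2-5 and TBX5, read 12610 ± 1950 in control, 11740 ± 1450 in TGF-β2-treated and 10590 ± 1030 in PDGF-BB-treated cells, with overlap throughout. Mb, the myoglobin gene and a MEF2 target, read 1030 ± 481 in TGF-β2-treated against 1751 ± 729 in control cells, a log2 fold change of -0.78 (unadjusted p = 0.0417, adjusted p = 1 in limma). Tnnc1, the cardiac troponin C gene, gave -0.36 in the same comparison (unadjusted p = 0.0789), and Mb gave -0.63 between TGF-β2 and PDGF-BB (unadjusted p = 0.114). Casq2, the calsequestrin gene, gave 0.54 between TGF-β2 and PDGF-BB (unadjusted p = 0.0437, adjusted p = 0.966). Csrp3 and Ttn, both sarcomere genes, gave -0.3 and -0.36 for PDGF-BB against control (unadjusted p = 0.103 and 0.1 in limma).

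The labelled cell type was checked against its markers. Of 8 cardiomyocyte markers on the array, 7 were detected on all 11 arrays (Myh6, Myl7, Myl4, Actc1, Tnni3, Actn2 and Nppa), and the probe of Ryr2 on none. Their summed signal was 125400 to 145800 on the PDGF-BB arrays, 124700 to 142300 on the TGF-β2 arrays and 124900 to 142400 on the control arrays. Fibroblast markers were detected on all arrays for 0 of 8 genes, leukocyte markers for 0 of 5, endothelial markers for 1 of 7 (Egfl7), smooth muscle markers for 3 of 6 (Acta2, Tagln and Smtn) and skeletal muscle markers for 1 of 7 (Acta1). In the same order, 6, 2, 4, 3 and 3 genes were detected on 0 arrays. Of the leukocyte markers, Cd3e was detected on 10 of 11 arrays and Aif1 on 9. The summed fibroblast signal was 37.86 to 156.9 on the PDGF-BB arrays, 13.19 to 51.41 on the TGF-β2 arrays and 19.36 to 73.95 on the control arrays. With 6 of these 8 genes detected on 0 arrays, this sum lies near background and no difference is read from it. The summed smooth muscle signal was 57460 to 68400, 51600 to 66640 and 52630 to 61660 in the same order. Most of it came from Acta2, which read 50470 to 66620. The part of either list in the results was not tested. The 11 arrays had 11401 to 12455 probes detected, and a mean non-normalized signal from 451 to 846.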

How the data were processed

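Values deposited by the authors were a non-normalized signal intensity with its detection p-value and bead number, and a normalized signal intensity on a linear scale. According to the methods, normalization was by a cubic spline in Beadstudio, whereas the submitters' processing notes name GenomeStudio. Levels are means ± SD of the normalized signals. Log2 fold changes start from the deposited non-normalized intensities and were fitted in R 4.3.3 (limma 3.58.1). Background was corrected by neqc using the detection p-values, with an offset of 16, followed by quantile normalization and log2. Only probes detected (p-value under 0.05) on 3 or more arrays entered the test (12894). The model had 1 mean per group over 11 arrays (lmFit, eBayes) and Benjamini-Hochberg adjustment over every tested probe. The fit was tested on simulated data. Motifs were searched with Python 3.11.15.

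The members and gene lists were chosen with earlier results of these data known. For a listed gene with several probes, the brightest tested one was used. Named were every probe of the 9 members, for each list every called gene and the 2 of lowest unadjusted p in each comparison, for each member the 2 genes of highest r, and each marker detected on all arrays. Other genes named with values (Nppa, Hey1) or as not detected (Hand1, Tbx2, Isl1) were chosen after their values were seen, as were the relatives named as detected. The same holds for Cd3e and Aif1. Of the 25697 probes, the platform annotation gives 1 symbol for 23978 and none for 1719. Symbols were updated through Entrez identifiers for 23962.

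Groups and replicate numbers come from the labels. Per the methods, each cell sample was taken from a separate culture flask, which makes the flask the unit of replication. The design text lists 4 PDGF-BB samples, of which 3 are analysed here. The study describes the cell array of the other as an outlier, so the PDGF-BB spread is that of the 3 kept. Same-numbered control and TGF-β2 arrays deviated together from their group means (r of 0.191, 0.4, 0.504 and 0.371), each above 0.1. For PDGF-BB the values were mixed against control (-0.138, -0.442 and 0.203) and against TGF-β2 (0.182, -0.328 and 0.328), and its numbers 2 and 3 do not follow the chip layout of the other groups, so its numbers were not taken as pairs. The number of arrays and beads limits the precision. Alternatives were other background, normalization, offset and filter settings, chip, position set and replicate blocks, array weights, and leaving out each array in turn.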

Additional observations from a re-analysis of the deposited data

How the results depend on the processing

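Over up to 27 alternatives a comparison, the count of called probes of the cardiac transcription factors was 0 in every comparison, including the fit with the replicate number as a block (0 called) and each fit without 1 array (0 to 0). The block changed no other call. The gene lists gave 0 called likewise in each setting run. Of 1170 values of the 15 probes, 113 changed sign, and 0 passed an adjusted p of 0.05, the lowest being 0.234 for Mef2c ILMN_1214950 between TGF-β2 and PDGF-BB with array weights. Mef2c kept its sign in both comparisons with PDGF-BB in all settings run, from -0.98 to -0.56 at ILMN_1214950, -0.89 to -0.16 at ILMN_2732465 and -2.02 to -0.49 at ILMN_2887992 against control, and from 0.47 to 1.31, 0.42 to 1.09 and 0.37 to 2.09 for TGF-β2 against PDGF-BB. Gata4 and Mef2a ILMN_1248647 also kept their signs in both comparisons with PDGF-BB, so this was not particular to Mef2c. The settings reuse the same arrays, so a kept sign is no independent result. With a detection p-value under 0.01 on all arrays, ILMN_1214950 and ILMN_2887992 were not tested. Low signal limits Gata4, Tbx5 and Mef2d, and also Mef2c ILMN_1214950. Its median signal was 141.4, beside 137.6 for Gata4 and 104.9 for Tbx5 ILMN_2664533. Its detection p-value on PDGF-BB 1 was 0.0226.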

Other observations

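Within the groups of 4 arrays, 30 sets of member signals were checked for a single array far from the other 3, by Dixon's ratio of its gap to the range at the 95% level. None exceeded the critical value, where about 1.5 would by chance. PDGF-BB, with 3 arrays, could not be checked in this way.

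The array with the highest value was control 1 at 4 of the 15 probes and TGF-β2 3 at 3, and that with the lowest was PDGF-BB 1 at 5.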
